A study of Homo sapiens with 12 samples.

Results

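The genes described here encode granins and neuropeptides: CHGA, CHGB, SCG2, SCG3, SCG5, VGF, NPY, VIP, GAL and SST. They were chosen by name, as the rows of the deposited count tables with these symbols, and make up 10 of the 19923 genes counted. Polyadenylated RNA was sequenced from SK-N-BE2 and NGP, long-established lines grown from human neuroblastoma, both with amplified MYCN and both given as wild type. SK-N-BE2 was kept for 6 days with 12 µM STM2457 or with DMSO, the control, and NGP for 6 days with 1 µM STM2457 or with DMSO. STM2457 is a small-molecule inhibitor of METTL3, the methyltransferase that places N6-methyladenosine on messenger RNA. Each of the 4 groups held 3 libraries. Each line was sequenced in a run of its own, so the 3 factors line, dose and sequencing run cannot be told apart. The labels do not say whether the replicates were separate cultures, so the p-values below measure the spread between these libraries only.

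Granins are acidic proteins stored in the dense-core vesicles of neurons and endocrine cells, where they help to condense the vesicle's cargo. Neuropeptide precursors enter the same vesicles, are cut by prohormone convertases and trimmed and amidated by further enzymes, and leave the cell upon stimulated exocytosis. Neuroblastoma arises from the sympathoadrenal lineage, whose mature cells release peptides such as NPY together with catecholamines, and chromogranin A is a long-used tissue and serum marker of such tumours.

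CHGA lies at chr14:92923150-92935285 and CHGB at chr20:5911510-5925353, both on the plus strand of GRCh38. SCG2 lies at chr2:223596940-223602361 on the minus strand. SCG3 lies at chr15:51681492-51721026 and SCG5 at chr15:32641676-32697098, both on the plus strand. VGF lies at chr7:101162509-101165569 on the minus strand and NPY at chr7:24284188-24291862 on the plus strand. VIP lies at chr6:152750797-152759765 and GAL at chr11:68683779-68691175, both on the plus strand, and SST at chr3:187668912-187670394 on the minus strand. In the GENCODE 44 annotation 51.9% of the exon length of SCG5 is shared with ARHGAP11A-SCG5 and SCG5-AS1, and 20.6% of that of VIP with LINC02840 on the other strand. No strand option was set in counting, so reads of such partners cannot be told from those of SCG5 and VIP. The other 8 genes shared no exon bases with another gene.

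Several genes of this group are textbook targets of cyclic AMP signalling through the response element TGACGTCA, which reads the same on both strands. RefSeq promoters (GRCh38.p14) were on hand for 7 of the 10 genes, namely CHGA, SCG3, SCG5, VGF, NPY, VIP and SST. The 250 bases before the annotated start held TGACGTCA in 3 of the 7, CHGA, VGF and SST, against 1.65% of 35116 promoters of the same length. The shorter TGACGT, on either strand, was found in 4 of the 7 (VIP in addition) and in 7.1% of all promoters. The half-site TGACG, on either strand, was found in 5 of the 7 (SCG5 in addition) and in 21.2% of all promoters. Each longer match contains the shorter ones, and a match describes the letters only. The 150 bases before the start are printed 5′ to 3′ for the 3 genes with the full element, for VIP with its 2 half-sites, and for NPY, which held none of these letters in its window. Capitals mark the matches.
CHGA: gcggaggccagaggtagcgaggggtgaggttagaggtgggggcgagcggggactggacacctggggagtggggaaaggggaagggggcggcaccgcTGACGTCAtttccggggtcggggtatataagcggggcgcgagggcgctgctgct
VGF: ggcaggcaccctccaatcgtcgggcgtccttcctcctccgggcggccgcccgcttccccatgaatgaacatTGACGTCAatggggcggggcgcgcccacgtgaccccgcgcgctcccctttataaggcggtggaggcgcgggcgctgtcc
SST: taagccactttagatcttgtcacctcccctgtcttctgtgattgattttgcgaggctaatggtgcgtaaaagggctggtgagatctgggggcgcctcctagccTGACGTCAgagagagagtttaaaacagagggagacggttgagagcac
VIP: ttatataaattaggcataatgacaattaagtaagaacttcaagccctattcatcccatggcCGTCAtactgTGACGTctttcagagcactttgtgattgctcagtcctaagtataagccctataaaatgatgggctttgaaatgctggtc
NPY: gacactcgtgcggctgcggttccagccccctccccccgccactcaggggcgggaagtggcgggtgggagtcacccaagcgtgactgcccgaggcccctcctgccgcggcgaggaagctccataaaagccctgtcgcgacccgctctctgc
These stretches are chr14:92923000-92923149 on the plus strand for CHGA, chr7:101165570-101165719 on the minus strand for VGF, chr3:187670395-187670544 on the minus strand for SST, chr6:152750647-152750796 on the plus strand for VIP and chr7:24284040-24284189 on the plus strand for NPY. The full element spans bases 54 to 47 before the start in CHGA, 79 to 72 in VGF and 47 to 40 in SST. Of the genes with a match, the 4 tested in SK-N-BE2 (CHGA, SCG5, VGF and VIP) were called lower there with STM2457, as were 27.8% of all genes tested. SST, which also held a match, had too few reads for that test, at 0 with DMSO and 26 with STM2457 in SK-N-BE2. In NGP CHGA and VGF were not called, SCG5 was not tested and VIP was higher. Of the genes without a match, NPY was higher in both lines and SCG3 was called in neither. The part of these letters in the responses was not tested.

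The libraries held between 47242379 and 58159937 counted reads. METTL3 itself, the target of the inhibitor, was higher with STM2457 in both lines, with mean CPM (counts scaled by library size) of 79.9 against 54.3 in SK-N-BE2 and 76.6 against 40.6 in NGP. MYCN was not called in either line, with group means between 3984 and 4456 CPM. All 7 sympathetic neuroblast markers were detected and summed to between 1451 and 2092 CPM per library, but TH, the first enzyme of catecholamine synthesis, had 78 reads in the 3 NGP DMSO libraries against 37332 in those of SK-N-BE2. Markers of Schwann, immune, endothelial, epithelial and pancreatic endocrine cells summed to at most 11.2 CPM per list in any library, and 5 mesenchymal markers to between 13.7 and 46.6 CPM, highest in NGP with STM2457 (32.8 to 46.6 CPM against 19.2 to 22.2 CPM with DMSO). Of the 5 mesenchymal markers, SNAI2 was called higher in NGP with STM2457 (mean 4.4 to 21.6 CPM, edgeR adjusted p = 0.000113). PRRX1 and FOSL1 were not called there, and NOTCH2 and TWIST2 were not tested. The part of the listed markers' cells in the results was not tested.

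Most of the granins and peptides stood higher in SK-N-BE2 than in NGP. Among the DMSO libraries 8 of 9 genes tested were higher in SK-N-BE2 (edgeR's quasi-likelihood test, Benjamini-Hochberg adjusted p under 0.05 over all genes), and none was lower. Of all 14731 genes tested, 35.7% were called higher in this direction, 71.1% in either direction. The median log2 difference was 2.59 over the 9 genes and 0 over all genes. The widest gaps were those of VIP (log2 difference 8.08 ± 0.27 SE, 269.8-fold, adjusted p = 5.54e-12) and SCG5 (7.81 ± 0.26, 224-fold, adjusted p = 5.65e-12). VGF differed by 3.43 ± 0.41 and NPY by 3.30 ± 0.12 on the log2 scale. The remaining called genes lay closer together, with log2 differences of 2.59 for CHGB, 2.35 for SCG2, 2.22 for GAL and 2.13 for CHGA. SCG3 was the exception, at 269 ± 8.91 CPM (SD, n = 3) in SK-N-BE2 and 249 ± 12.2 CPM in NGP (log2 difference 0.11 ± 0.08 SE, edgeR adjusted p = 0.197). These are bulk libraries, in which fewer expressing cells and less RNA per cell cannot be told apart.

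Levels were compared between genes as CPM per kilobase of exon, which corrects for length. In SK-N-BE2 with DMSO, CHGA led with 678 ± 120.5 (SD, n = 3), followed by CHGB at 485 ± 21 and SCG2 at 331 ± 21.7. GAL at 237 ± 86.3 and VGF at 233 ± 106 overlapped each other. SCG3 reached 84.9 ± 2.81, NPY 65.4 ± 3.93, VIP 29.5 ± 3.72 and SCG5 13 ± 2.18. CHGA thus ranked above 99.8% of all genes, by CPM per kilobase, and SCG5 above 83%. In NGP with DMSO, CHGA again led with 155 ± 33.2, and CHGB at 80.5 ± 13 overlapped SCG3 at 78.5 ± 3.84. SCG2 stood at 65.1 ± 4.74, GAL at 50.8 ± 11.9, VGF at 21.7 ± 2.79 and NPY at 6.63 ± 0.677. VIP (0.108 ± 0.0145) and SCG5 (0.057 ± 0.0263) were the lowest of the genes with reads in NGP, each resting on at most 10 reads per library, and SST had 0 reads.

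**Figure D1:**
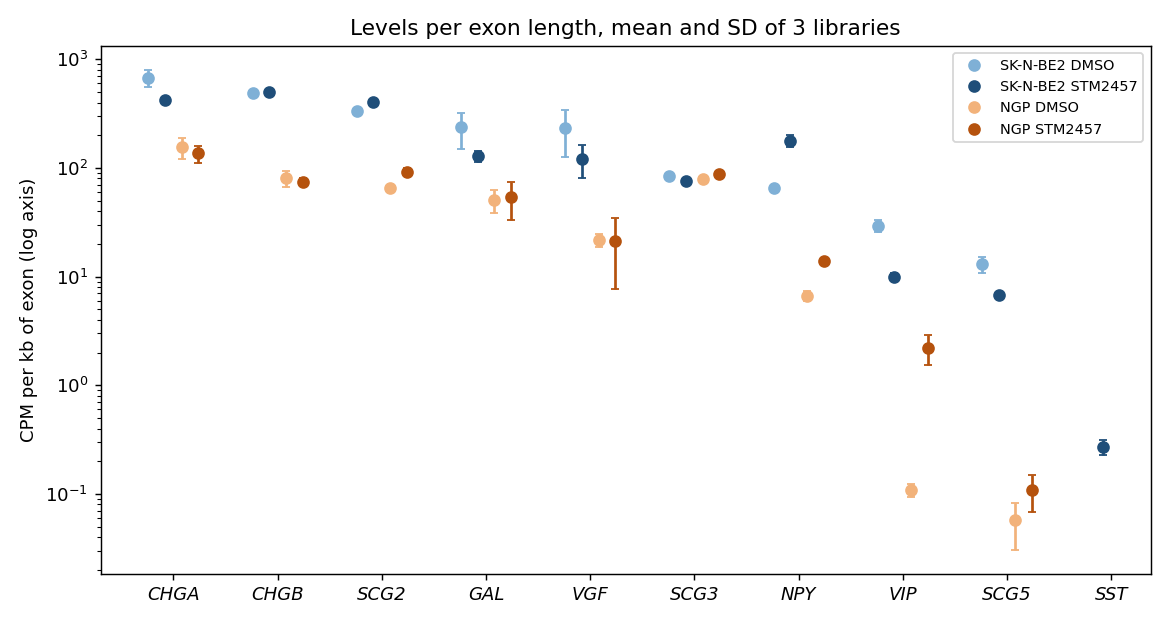
Level of each gene per kilobase of exon (log axis) in the 4 groups, with points for the mean of 3 libraries and bars for the SD; groups at 0 reads are not drawn. SCG3 lies between 76.3 and 87.4 in all 4 groups, while VIP and SCG5 differ by 269.8-fold and 224-fold between the DMSO groups.

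With STM2457, 7 of 9 genes tested in SK-N-BE2 were called, 2 higher (NPY, SCG2) and 5 lower (CHGA, SCG5, VGF, VIP, GAL). Over all 14013 genes tested in this line 54.7% were called, 26.9% higher and 27.8% lower. The median log2 fold change was -0.73 over the 9 genes and -0.02 over all genes. In NGP 3 of 8 genes tested were called, all higher (SCG2, NPY, VIP), against 41.7% of all 13610 genes, 19.4% higher and 22.2% lower. The median there was 0.12 over the 8 genes and -0.03 over all genes. NPY and SCG2 were the genes called higher in both lines.

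**Figure D2:**
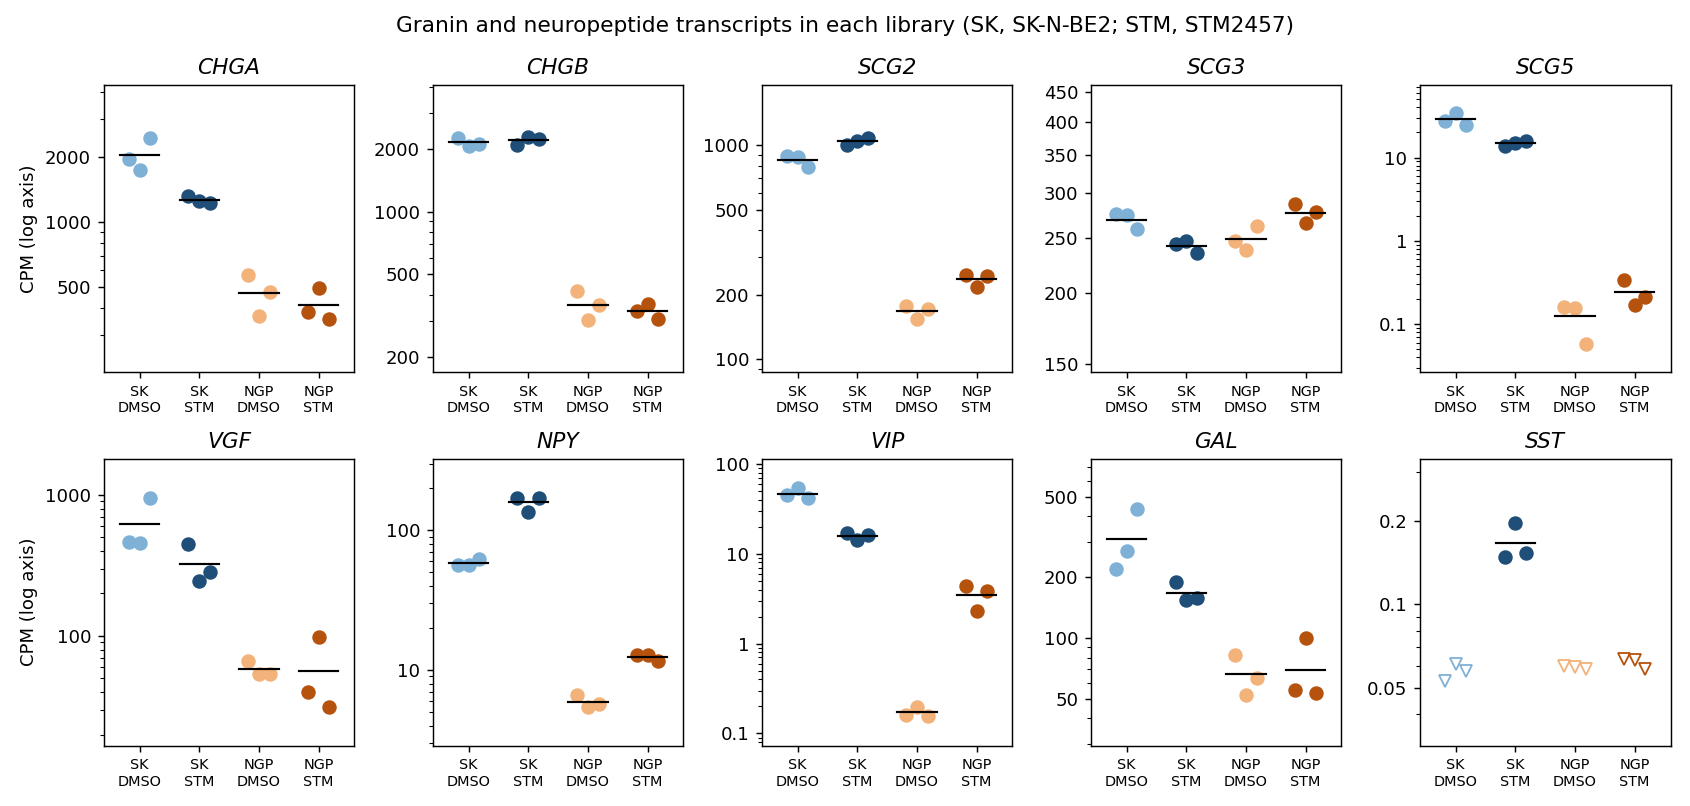
CPM of each gene in each of the 12 libraries on log axes whose range differs between panels, with lines at the group means; open triangles mark libraries without a read, drawn at the level of 3 reads. NPY lies higher with STM2457 in both lines, VIP lies lower in SK-N-BE2 and higher in NGP, and SST has reads only in the 3 SK-N-BE2 libraries with STM2457.

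The chromogranins CHGA and CHGB, the most abundant granins of SK-N-BE2, parted in SK-N-BE2. CHGA, also the precursor of vasostatin and pancreastatin, stood at 1953, 1743 and 2452 CPM with DMSO and at 1328, 1247 and 1226 CPM with STM2457. Every treated library lay below every control library, and the log2 fold change was -0.73 ± 0.12 SE (1.66-fold lower, edgeR adjusted p = 2e-04). CHGB, the second chromogranin, stood at 2262, 2082 and 2129 CPM with DMSO and at 2093, 2298 and 2236 CPM with STM2457. Its groups overlapped, with an estimated log2 fold change of 0 ± 0.09 SE (adjusted p = 0.986 in edgeR). Within each library the ratio of CHGA to CHGB per length was 1.27, 1.23 and 1.69 with DMSO and 0.933, 0.798 and 0.806 with STM2457, so that CHGB took the place of CHGA as the leading gene of the group.

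In NGP neither chromogranin was called. CHGA stood at 566, 366 and 472 CPM with DMSO and at 383, 497 and 356 CPM with STM2457, with overlapping groups (log2 fold change -0.18 ± 0.18 SE, edgeR adjusted p = 0.451). CHGB ranged from 301 to 416 CPM with DMSO and from 306 to 359 CPM with STM2457 (-0.10 ± 0.13, adjusted p = 0.567). The ratio of CHGA to CHGB ran from 1.79 to 2 with DMSO and from 1.69 to 2.03 with STM2457. The CHGA responses of the lines differed by -0.54 ± 0.24 on the log2 scale, SK-N-BE2 minus NGP, which missed the threshold (edgeR adjusted p = 0.101). That difference was called when NGP DMSO replicate 1 was left out (-0.71, adjusted p = 0.00979).

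SCG2, secretogranin II and precursor of secretoneurin, was the granin that was higher in both lines. In NGP it stood at 178, 154 and 172 CPM with DMSO and at 249, 218 and 246 CPM with STM2457, without overlap. The log2 fold change was 0.51 ± 0.10 SE (1.42-fold, edgeR adjusted p = 0.00452). In SK-N-BE2 it stood at 894, 877 and 789.8 CPM with DMSO and at 1005, 1041 and 1083 CPM with STM2457, again without overlap. There the log2 fold change was 0.25 ± 0.09 SE (1.19-fold, edgeR adjusted p = 0.0299). The call in SK-N-BE2 was lost without DMSO replicate 3 and without any 1 of the STM2457 libraries, with adjusted p up to 0.123, and without the 4 libraries leaning to high GC described below (adjusted p = 0.159), whereas the NGP call held in each of its 6 such fits. The difference between the responses missed the threshold (-0.24 ± 0.13, edgeR adjusted p = 0.169).

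SCG3, secretogranin III, which binds chromogranin A and tethers it to the vesicle membrane, differed least between the 4 groups, with 1.15 times between the highest and the lowest group mean. It stood at 275, 274 and 259 CPM in SK-N-BE2 with DMSO and at 244, 247 and 235 CPM with STM2457. In NGP it stood at 247, 238 and 262 CPM with DMSO and at 287, 265 and 278 CPM with STM2457. The treated libraries lay below all controls in SK-N-BE2 and above them in NGP, although neither change passed the threshold. The log2 fold changes were -0.19 ± 0.08 SE (edgeR adjusted p = 0.0532) and 0.16 ± 0.09 SE (edgeR adjusted p = 0.192). Without SK-N-BE2 DMSO replicate 3 the former was called (adjusted p = 0.0417). The difference between the responses was small but called, at -0.33 ± 0.11 SE (edgeR adjusted p = 0.0277). It lost its call without any 1 of 6 libraries, namely the 3 SK-N-BE2 STM2457 libraries, NGP DMSO replicate 2 and NGP STM2457 replicates 1 and 3, with adjusted p up to 0.0797, and without the filter on low counts (adjusted p = 0.064).

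SCG5, the chaperone of prohormone convertase 2 (PCSK2), fell in SK-N-BE2. It stood at 27.5, 33.8 and 24.4 CPM with DMSO and at 13.7, 15 and 15.6 CPM with STM2457, without overlap. The log2 fold change was -0.99 ± 0.12 SE (1.98-fold lower, edgeR adjusted p = 1.95e-05). In NGP it had 8, 8 and 3 reads with DMSO and 16, 8 and 11 with STM2457, too few to enter the test of that line. Its partner PCSK2 also fell in SK-N-BE2, from 109 reads in the 3 DMSO libraries to 22 with STM2457 (log2 fold change -2.32 ± 0.46 SE, adjusted p = 0.000821 in edgeR), and had no read in NGP. PCSK2 was named after its values were seen.

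VGF, the neurotrophin-inducible granin and precursor of TLQP peptides, varied widely between replicates. In SK-N-BE2 it stood at 466, 456 and 951 CPM with DMSO and at 447, 244 and 285 CPM with STM2457. The highest treated library came close to the lowest control without overlap, and the log2 fold change was -0.98 ± 0.26 SE (adjusted p = 0.00604 in edgeR). Without DMSO replicate 3 it shrank to -0.54 (adjusted p = 0.0412), and DESeq2 did not call it (adjusted p = 0.0663). In NGP it stood at 66.7, 53.5 and 54 CPM with DMSO and at 40, 97.7 and 31.6 CPM with STM2457. These groups overlapped (-0.04 ± 0.37 SE, edgeR adjusted p = 0.943), and without STM2457 replicate 2 the change was called lower (-0.67, adjusted p = 0.0213).

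NPY, the sympathetic cotransmitter neuropeptide Y, rose in both lines. In SK-N-BE2 it stood at 56.1, 56.7 and 62.5 CPM with DMSO and at 169.9, 136 and 171 CPM with STM2457. In NGP it stood at 6.6, 5.45 and 5.72 CPM with DMSO and at 12.7, 12.7 and 11.6 CPM with STM2457. In each line every treated library exceeded every control. The log2 fold change was 1.41 ± 0.10 SE in SK-N-BE2 (2.66-fold, edgeR adjusted p = 1.29e-07) and 1.06 ± 0.14 SE in NGP (2.09-fold, edgeR adjusted p = 0.000584). The responses differed by 0.36 ± 0.16, which missed the threshold (edgeR adjusted p = 0.0963); without SK-N-BE2 STM2457 replicate 2 the difference was called (0.46, adjusted p = 0.0381). NPY in treated NGP remained below NPY in untreated SK-N-BE2.

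VIP, the vasoactive intestinal peptide, moved in opposite directions. In SK-N-BE2 it stood at 44.9, 53.4 and 42.1 CPM with DMSO and at 17, 14.3 and 16.3 CPM with STM2457, a log2 fold change of -1.59 ± 0.11 SE (3.02-fold lower, edgeR adjusted p = 1.26e-07). In NGP it rose from 0.159, 0.197 and 0.156 CPM to 4.38, 2.29 and 3.84 CPM, that is from 26 to 514 reads over 3 libraries. The groups did not overlap in either line. The rise in NGP was 4.34 ± 0.36 SE on the log2 scale (20.3-fold, edgeR adjusted p = 5.76e-05). The difference between the responses was -5.92 ± 0.34 SE (edgeR adjusted p = 1.06e-07), and its range over the fits that left out 1 library was -6.15 to -5.74. The treated libraries of the lines were closer than the controls, at 15.9 ± 1.41 against 3.5 ± 1.08 CPM (SD, n = 3).

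The balance of NPY and VIP within a library shifted accordingly. Per length, NPY exceeded VIP by 2.22, 1.88 and 2.64 times in the SK-N-BE2 DMSO libraries and by 17.7, 16.9 and 18.7 times with STM2457. In NGP the ratio was 73.7, 49 and 65 with DMSO and 5.15, 9.87 and 5.34 with STM2457. It was higher in every treated library of SK-N-BE2 and lower in every treated library of NGP than in the controls of that line.

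GAL, the precursor of galanin, fell in SK-N-BE2 and was not called in NGP. It stood at 219, 269 and 434 CPM in SK-N-BE2 with DMSO and at 190.2, 154 and 157 CPM with STM2457, without overlap (log2 fold change -0.92 ± 0.19 SE, 1.89-fold lower, edgeR adjusted p = 0.00109). Without DMSO replicate 3 the change was -0.58 (adjusted p = 0.00197). In NGP it stood at 82.7, 52.1 and 63.3 CPM with DMSO and at 55.4, 100.1 and 53.4 CPM with STM2457, with overlapping groups (0.08 ± 0.26 SE, edgeR adjusted p = 0.828). The difference between the responses was -0.98 ± 0.38 SE and missed the threshold (edgeR adjusted p = 0.0619). It was called without SK-N-BE2 DMSO replicate 1 (-1.20), without NGP DMSO replicate 1 (-1.19) and without NGP STM2457 replicate 3 (-1.14), with edgeR adjusted p = 0.023, 0.0127 and 0.043.

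SST, the precursor of somatostatin, was at the limit of detection. It had 8, 10 and 8 reads in the SK-N-BE2 libraries with STM2457 and 0 reads in the other 9 libraries. A count of 0 allows up to 3 reads per library, or 0.0527 to 0.0635 CPM, and such limits cover counting error only. Both reads of a fragment were counted, so the number of fragments is smaller. The filter on low counts kept SST out of the main test, and without that filter it passed in SK-N-BE2 (adjusted p = 0.00505 in edgeR). INS, a pancreatic endocrine marker, was also higher there, at 0.568 to 0.999 CPM with STM2457 against 0 to 0.105 CPM with DMSO, while GCG and PDX1 had 0 reads in these 6 libraries; the part of other cells in this result was not tested.

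**Figure D3:**
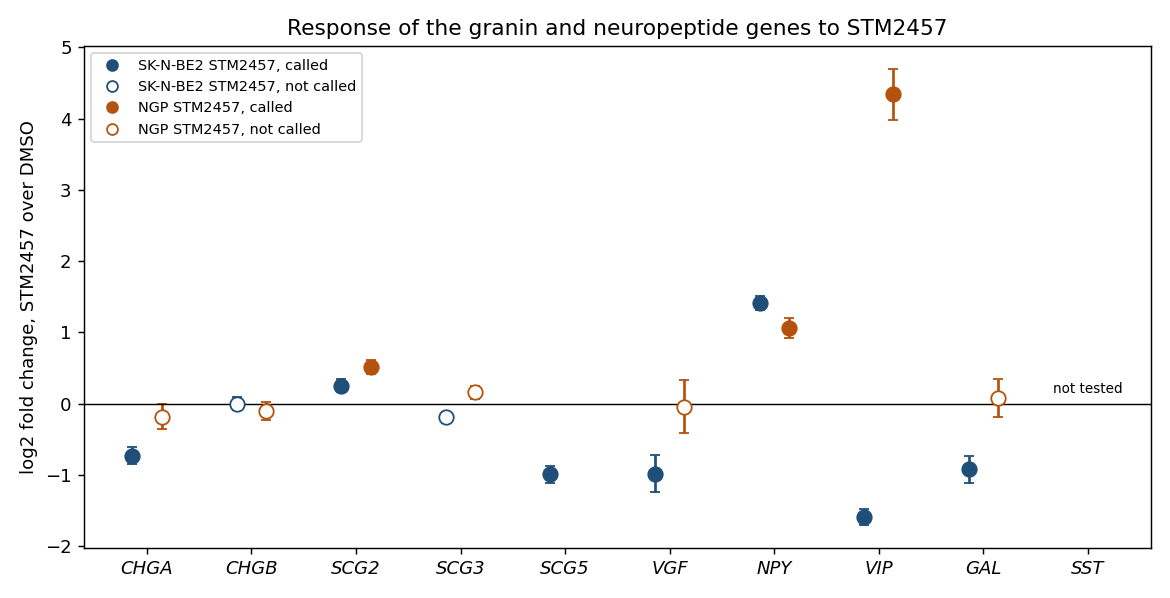
Log2 fold change of each gene with STM2457 in SK-N-BE2 and NGP, with bars for the SE; filled points passed an adjusted p of 0.05 in edgeR's quasi-likelihood test. NPY and SCG2 lie above 0 in both lines, VIP lies at -1.59 in SK-N-BE2 and 4.34 in NGP, while SST in both lines and SCG5 in NGP had too few reads for the test.

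In the direct test of one line's response against the other's, 3 of 9 genes were called (SCG3, SCG5 and VIP), all with the lower response in SK-N-BE2, against 30.9% of all 14731 genes tested, 17.0% higher and 13.9% lower. The count was 7 with the offsets for GC content and 6 without the 4 libraries leaning to high GC, both chosen after seeing the data and described below, and 5 without NGP DMSO replicate 1. The median difference was -0.54 over the 9 genes and 0.02 over all genes. For SCG5 the difference was -1.90 ± 0.44 SE (edgeR adjusted p = 0.00466), and it rests on the 19 and 35 reads of NGP. CHGB had the smallest difference, at 0.11 ± 0.16 SE (edgeR adjusted p = 0.641), and VGF a wide one, at -0.93 ± 0.53 SE (edgeR adjusted p = 0.207). The 10 genes together held 0.568% to 0.705% of the counted reads in SK-N-BE2 with DMSO and 0.534% to 0.548% with STM2457. In NGP they held 0.124% to 0.153% with DMSO and 0.13% to 0.156% with STM2457, so that the groups overlapped in NGP and did not in SK-N-BE2.

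VGF, GAL and CHGA, the genes of highest GC content in the group (69.8%, 64% and 61.1% of exon bases), varied between replicates with a trend that ran through the libraries. In each group 1 library had GC-rich genes shifted upward, namely SK-N-BE2 DMSO replicate 3, SK-N-BE2 STM2457 replicate 1, NGP DMSO replicate 1 and NGP STM2457 replicate 2. The median shift of genes with at least 60% GC was 0.17, 0.10, 0.28 and 0.18 there, on the log2 scale against the group mean. VGF, GAL and CHGA were each highest in that library in 4 of 4 groups, NPY (57.6% GC) in 3 and CHGB (47.5% GC) in 2. SCG5 (46.5% GC), SCG2 (42.3% GC) and VIP (37% GC) were so in 1 group each, and SCG3 (41% GC) in 0. Over the 12 libraries the deviation of CHGB from its group mean also followed this shift of GC-rich genes (Pearson r = 0.69). Offsets for GC content were chosen after seeing the data. They were set against the mean of all libraries in a fit, so they also remove GC-dependent differences between the groups. With the offsets the falls in SK-N-BE2 were -0.62 for CHGA, -0.74 for VGF and -0.68 for GAL, all still called (edgeR adjusted p = 0.000122, 0.00233 and 0.000427). Leaving out these 4 libraries took 1 of the 3 from each group, in both lines. The falls in SK-N-BE2 were then -0.61, -0.83 and -0.68 (edgeR adjusted p = 0.00396, 0.000366 and 0.00141). In NGP the offsets brought GAL to 0.52, called higher (edgeR adjusted p = 0.00526), and VGF to 0.33, not called (adjusted p = 0.288). Without the 4 libraries VGF in NGP was -0.56 and called lower (edgeR adjusted p = 0.000849), SCG3 was called higher (0.20, adjusted p = 0.02) and GAL was not called (-0.06, adjusted p = 0.598).

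**Figure D4:**
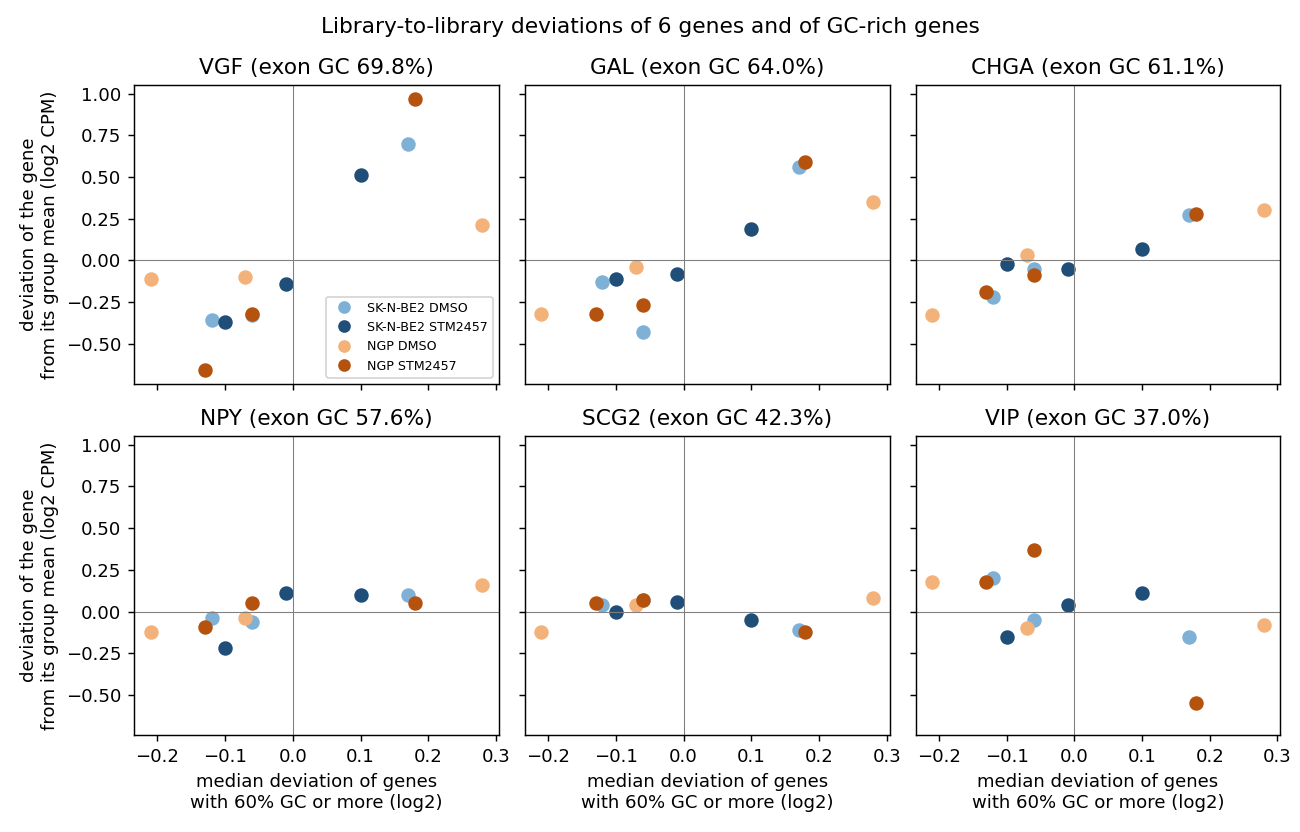
Deviation of 6 genes from their group mean (log2 CPM, vertical) against the median deviation of genes with at least 60% GC in the same library (log2, horizontal), 1 point per library. For VGF, GAL and CHGA the right-most library of each group is also the highest, while SCG2 stays within 0.12 of its group mean in all 12 libraries.

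The enzymes that cut and finish the precursors were called in shares below or near those of all genes. Of 11 such genes, 10 were tested in SK-N-BE2, with 1 higher and 3 lower (median log2 fold change -0.27), where 54.7% of all genes were called. In NGP 9 were tested, with 2 higher and 2 lower (median -0.17), where 41.7% of all genes were called. PCSK1, the prohormone convertase of early vesicles, fell in both lines, from 35.2 ± 3.74 to 6.72 ± 0.339 CPM (SD, n = 3) in SK-N-BE2 and from 33.1 ± 7.61 to 15.7 ± 0.108 CPM in NGP. The log2 fold changes were -2.43 ± 0.11 SE (edgeR adjusted p = 3.08e-09) and -1.07 ± 0.17 SE (edgeR adjusted p = 0.00158), and the fall was larger in SK-N-BE2 by test (-1.34 ± 0.21, adjusted p = 0.000294). CTSL, cathepsin L, fell by 0.46 and FURIN, the convertase of the Golgi, rose by 0.29 on the log2 scale in SK-N-BE2. In NGP PCSK5 rose by 0.53 and PAM, the amidating enzyme, by 0.30, while CPE, the carboxypeptidase that trims the cut peptides, fell by 0.36. The calls of FURIN, PCSK5, PAM and CPE were each lost in fits that left out 1 library, with adjusted p up to 0.116, 0.127, 0.158 and 0.103.

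Of 23 genes for the formation and release of dense-core vesicles, 21 were tested in SK-N-BE2, with 4 higher (RAB3A, RAB3B, RAB3C and MYRIP) and 6 lower (median -0.02). In NGP 22 were tested, with 2 higher (CYB561 and RAB27B) and 10 lower (median -0.56). Among these 10, CADPS lost its call in 5 of 6 fits that left out 1 library (edgeR adjusted p up to 0.128). PICK1 lost its call in 3 of 6 (edgeR adjusted p up to 0.0847). Of all genes 54.7% were called in SK-N-BE2 (27.8% lower), and the share for NGP was 41.7% (22.2% lower). RAB3A and MYRIP were named after their values were seen. The RAB3A call was lost in 4 of 6 fits that left out 1 library (without DMSO replicate 2 or any of the STM2457 libraries), with adjusted p up to 0.0906. MYRIP, a linker of vesicles to myosin, fell in NGP (-1.16 ± 0.18, edgeR adjusted p = 0.00123), and its responses differed by 1.84 ± 0.22 (edgeR adjusted p = 3.41e-05). HID1, needed for vesicle formation at the Golgi, fell in both lines, from 38.6 ± 5.82 to 2.66 ± 0.773 CPM in NGP (log2 fold change -3.86 ± 0.24 SE, adjusted p = 1.5e-05 in edgeR) and from 33.4 ± 3.86 to 16.1 ± 1.74 CPM in SK-N-BE2 (-1.09 ± 0.11, adjusted p = 3.97e-06). Its responses differed by 2.78 ± 0.26 (edgeR adjusted p = 4.34e-06). SYTL4, a RAB27 effector at the vesicle, fell by 2.60 on the log2 scale in NGP; 17.5% of its exon length overlaps SRPX2 on the other strand, so its value is uncertain. CYB561, the vesicle's electron carrier for peptide amidation, fell by 0.61 in SK-N-BE2 from 202 ± 6.62 CPM and rose by 2.18 in NGP from 0.677 ± 0.0632 CPM. RAB27B, a vesicle GTPase, rose by 1.67 in NGP. In SK-N-BE2 SYT7, a calcium sensor of exocytosis, fell by 1.06, and RAB3C, a vesicle GTPase, rose by 0.80. RAB3B rose by 0.82 there, but of 6 fits that left out 1 library only the one without DMSO replicate 1 called it.

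Of 28 other neuropeptide precursors, 13 had enough reads for the test in SK-N-BE2, with 2 higher and 6 lower (median -0.80), and 11 in NGP, with 1 higher and 4 lower (median -0.31). Of all genes tested in SK-N-BE2, 26.9% were called higher and 27.8% lower; the shares for NGP were 19.4% and 22.2%. CALCB, the precursor of the second calcitonin gene-related peptide, fell in NGP from 29.9 ± 1.94 to 2.82 ± 0.474 CPM (log2 fold change -3.40 ± 0.16 SE, adjusted p = 4.07e-06 in edgeR) and in SK-N-BE2 from 1.62 ± 0.496 to 0.276 ± 0.156 CPM (-2.59 ± 0.43, adjusted p = 2e-04). NPPA, the atrial natriuretic peptide precursor, fell by 1.92 in NGP and by 2.29 in SK-N-BE2, with 25.5% of its exon length shared with CLCN6 on the other strand. NPPC, the precursor of C-type natriuretic peptide, was higher in SK-N-BE2, at 4.5 ± 0.961 against 0.6 ± 0.354 CPM, and lower in NGP, at 1.28 ± 0.514 against 4.73 ± 1.24 CPM. The NPPC responses differed by 4.77 ± 0.53 (edgeR adjusted p = 1.84e-05). CRH, corticotropin-releasing hormone, rose in SK-N-BE2 from 5.86 ± 1.35 to 17.3 ± 5.26 CPM (edgeR adjusted p = 4.95e-05). In NGP CRH, named after its values were seen, had 2 reads with DMSO and 98 with STM2457, a ratio of 50.9 with a 95% counting interval of 13.7 to 427, which is too narrow because both reads of a fragment were counted. NPW fell by 1.59 in NGP, with adjusted p up to 0.112 when 1 library was left out.

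Of 15 receptors for the peptides, 8 were tested in each line. In SK-N-BE2 2 were higher (NPY2R and ADCYAP1R1) and 0 lower (edgeR, median 0.21), and in NGP 2 were higher and 6 lower (median -0.92). Of all genes 54.7% were called in SK-N-BE2 (26.9% higher, 27.8% lower) and 41.7% in NGP (19.4% higher, 22.2% lower). SSTR2, 1 of the 6 lower in NGP, lost its call in 4 of 6 fits that left out 1 library (edgeR adjusted p up to 0.14). The difference between the responses was called for 5 of 9 (GALR1, VIPR1, VIPR2, ADCYAP1R1 and SSTR3), against 17.0% of all genes called higher. In all 5 the response was the higher one in SK-N-BE2. Each of the 5 was called lower in NGP, and only ADCYAP1R1 was called in SK-N-BE2. NPY2R, a presynaptic receptor of NPY, rose in both lines, from 32.3 ± 3.9 to 53.3 ± 1.26 CPM in SK-N-BE2 (edgeR adjusted p = 5.58e-05) and from 3.56 ± 0.814 to 7.14 ± 0.83 CPM in NGP (adjusted p = 0.00465), where it was named after its values were seen. VIPR1, a receptor of VIP, fell in NGP from 172 to 20 reads over 3 libraries (log2 fold change -3.01 ± 0.49 SE, edgeR adjusted p = 0.00166), with 11.4% of its exon length shared with VIPR1-AS1. For VIPR2 39.4% of the exon length is shared with LINC00689 on the other strand, so its values are uncertain. GALR1, a galanin receptor, fell in NGP from 302 to 37 reads (-2.95 ± 0.57, adjusted p = 0.00379). SSTR3 fell by 2.26 and SSTR1 rose by 1.86 in NGP, both somatostatin receptors. ADCYAP1R1, the receptor of the VIP-related peptide PACAP, rose by 0.54 in SK-N-BE2, and that call was lost without DMSO replicate 3 or STM2457 replicate 1.

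Among 12 regulators of granin and peptide genes, all tested in both lines, 1 (REST) was higher and 7 lower in SK-N-BE2 (median -0.46), and 2 were higher and 6 lower in NGP (median -0.32). Of all genes, 26.9% were called higher and 27.8% lower in SK-N-BE2, and 19.4% higher and 22.2% lower in NGP. EGR1, an immediate early transcription factor, fell in SK-N-BE2 from 452 ± 29 to 103 ± 3.95 CPM (log2 fold change -2.17 ± 0.09 SE, adjusted p = 8.74e-10 in edgeR). It rose in NGP from 8.25 ± 4.57 to 62 ± 14.1 CPM (2.91 ± 0.39, adjusted p = 0.000653). EGR1 was thus called in opposite directions in the lines, with a difference of -5.07 ± 0.41 (edgeR adjusted p = 1.31e-06). REST, a repressor of neuronal genes, rose in NGP from 6.14 ± 1.83 to 18.1 ± 1.52 CPM (edgeR adjusted p = 0.000736). Its rise in SK-N-BE2, named after its values were seen, was 0.40 ± 0.13 (edgeR adjusted p = 0.0206) and lost its call without DMSO replicate 3 or STM2457 replicates 2 or 3. INSM1, a transcription factor of neuroendocrine cells, fell in both lines, by 0.95 on the log2 scale in SK-N-BE2 and by 1.58 in NGP. CRTC1, a coactivator of CREB, fell by 0.65 in SK-N-BE2 and by 0.47 in NGP, where it was named after its values were seen. The NGP call was lost without STM2457 replicate 1 or 3 and with the GC offsets. The difference between its responses was not called (-0.16 ± 0.19, edgeR adjusted p = 0.548). CREB1, also in the list, was called in neither line. CREM was called lower in both lines, ATF1 lower in SK-N-BE2 only, and CRTC2 and CRTC3 lower in NGP only. The CREM calls and the CRTC2 call were each lost in fits that left out 1 library. All of these were named after their values were seen.

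**Figure D5:**
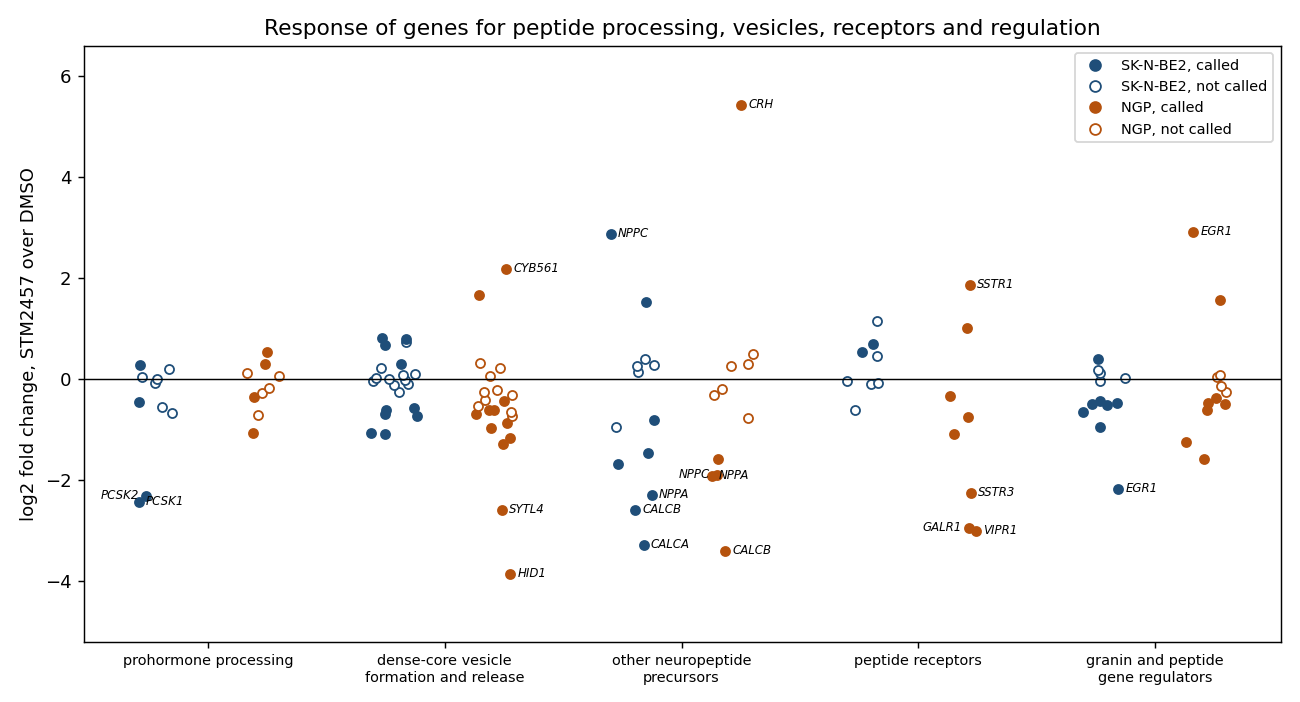
Log2 fold change with STM2457 of the tested genes of 5 lists, in SK-N-BE2 (left of each pair) and NGP (right); filled points passed an adjusted p of 0.05 and changes beyond 1.8 are named. EGR1 lies at -2.17 in SK-N-BE2 and 2.91 in NGP, while the NGP value of CRH rests on 2 reads with DMSO.

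The genes whose log2(CPM + 1) followed each member most closely over the 12 libraries were sought among 10670 genes, and since the lines stand apart this likeness is mostly that of the 2 lines. For NPY they were RNF26 and TPBG (Pearson r = 0.996 each), and for VIP BGN (r = 0.991) and ZFP36 (r = 0.99). For CHGA they were TMEM134 (r = 0.995) and NOL3 (r = 0.994), and for SCG5 SERPINB9 and FXYD5 (r = 0.999 each). SCG3, whose levels in the DMSO groups were not called different between the lines, had weaker likenesses, led by ZNF512 (r = 0.924) and RTL10 (r = 0.908). These values describe the libraries and carry no test.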

How the data were processed

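The authors deposited raw counts of reads per gene for 12 libraries. Per the file headers these came from featureCounts 2.0.5 with paired input, exons grouped by gene name, protein-coding genes of GENCODE 33 on GRCh38, no strand option, no multi-mapping reads and no counting of read pairs, so a fragment can add 2 to a count. Even numbers made up 72.1% to 75.4% of the counts between 1 and 20. The submitters' processing notes list FastQC 0.11.5, Trimmomatic 0.36, HISAT2 2.1.0 and Subread 1.5.3, without roles. Exon lengths were those in the deposited tables.

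Groups were taken from the titles of the libraries. With edgeR 4.0.16 under R 4.3.3, SK-N-BE2 and NGP were each fitted alone (filterByExpr, minimum count 10, TMM, quasi-likelihood test, Benjamini-Hochberg over all genes, threshold 0.05). The difference between the responses and the comparison of the DMSO groups used all 12. CPM was computed on TMM-scaled library sizes, and changes are relative. Exon overlap and GC content came from GENCODE 44 and the GRCh38 sequence. The fits were tested on simulated data. No 2 replicates had counts alike within sampling noise (chi-square per degree of freedom at least 2.78). With these depths counting error is small except for genes of few reads, and 3 replicates limit the precision of the rest.

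The members and lists were chosen with earlier results of these data known. Named beyond the members, METTL3 and MYCN were, per list and line, up to 4 called genes of largest change whose groups did not overlap and whose higher group averaged 1 CPM or more, and per member the 2 genes of most similar pattern. Some genes that met this rule are not reported here. Alternatives were DESeq2 size factors, no filter, upper-quartile factors, a filter at 1 CPM on average, each library left out, a replicate block, DESeq2 1.42.0, halved counts and a joint fit. GC offsets in 20 bins and leaving out 4 libraries were added after seeing the data.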

Additional observations from a re-analysis of the deposited data

Results flagged for a closer look

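For 3 genes the response to STM2457 differed between SK-N-BE2 and NGP by a test of the difference itself (edgeR's quasi-likelihood test). The differences, SK-N-BE2 minus NGP on the log2 scale, were -0.33 for SCG3 (adjusted p = 0.0277), -1.90 for SCG5 (adjusted p = 0.00466) and -5.92 for VIP (adjusted p = 1.06e-07). The lines also differed in dose and sequencing run, which cannot be told apart from the line. For SCG3 neither line's own change passed the threshold, and the call was lost in 6 of 12 fits that left out 1 library, without the filter on low counts (0.064) and with a replicate block (0.0552). For SCG5 the NGP side rests on 19 reads with DMSO and 35 with STM2457. For VIP each line's own change passed, in opposite directions, and the NGP control level rests on 26 reads.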

How the results depend on the processing

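Over the alternatives, 610 of 650 values of the members kept their side of the threshold, 17 lost and 23 gained a call, and 0 were called in the opposite direction. Values that were not called could change sign, as for GAL in NGP (-0.25 to 0.27 over the fits that left out 1 library). Of the genes called in the 5 lists, 1018 of 1094 values kept their direction and their call, and 76 lost the call. Leaving out 1 library gave 6 to 7 called members in SK-N-BE2 (7 with all), 3 to 4 in NGP (3 with all), 2 to 5 for the difference between the responses (3 with all) and 8 throughout for SK-N-BE2 against NGP with DMSO. The 5 came without NGP DMSO replicate 1, where CHGA and GAL were called as well. With GC offsets 7 members differed in response, and without the 4 libraries leaning to high GC 6 did, while 5 were then called in NGP; the cause was not tested. The same replicate numbers did not mark samples that deviate together: their correlations ran from -0.141 to 0.134, and not every sample correlated best with its own number. With the replicate number as a block, 6 members were called in SK-N-BE2, 3 in NGP, 2 for the difference and 8 between the DMSO groups, and genes called overall went from 7665 to 7522, 5671 to 5026, 4549 to 4025 and 10480 to 8439. VGF in SK-N-BE2 lost its call with DESeq2 (adjusted p = 0.0663) and in the joint fit (0.0564), and SCG2 there with upper-quartile factors (0.0632), with the block (0.0549) and without the 4 libraries (0.159). The SCG3 difference lost its call with the block (0.0552) and without the filter (0.064). SCG3 in SK-N-BE2 gained a call under 5 alternatives. SST had too few reads for the filter, and SCG5 in NGP gave no call without it (adjusted p = 0.365).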
